A study of Homo sapiens with 6 samples.

Results

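All 45188 peaks of the histone demethylase LSD1 called in vehicle-treated NCI-H526 cells were placed against the intervals of H3K4me2 and H3K4me1, the histone marks that the enzyme acts on, in the same cells. They are 45188 of the 271093 peaks and distinct intervals in the 4 peak lists of the study, and none was chosen by its value. The study used chromatin immunoprecipitation followed by sequencing (ChIP-seq) in NCI-H526, which is an established line of human small cell lung cancer. The lists used here are LSD1_DMSO, H3K4me2_DMSO and H3K4me1_DMSO, where DMSO is the solvent given in place of drug. A further list, LSD1_GSK552, comes from cells given 1 µM GSK2879552, an LSD1 inhibitor, for 24 h, and is described only in the closing observations. The labels give the same treatment text for every sample, and it was read as applying to the libraries named GSK552. Each list comes from 1 library of 1 cell line, so there is no replicate, no p-value is given, and every statement compares single libraries.

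As background, LSD1 (KDM1A) removes methyl groups from lysine 4 of histone H3 when it carries 1 or more methyl groups but not the full set, and it acts on chromatin with the partner protein CoREST (RCOR1). H3K4me1 is typical of enhancers, whereas H3K4me2 marks enhancers and promoters alike. At an active site the DNA bound by transcription factors is often open, and the marked nucleosomes stand to either side of it, so a mark can be high beside a bound protein and low under it.

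The centre of an LSD1 peak is the midpoint of the deposited interval, because that list gives no summit. The signed distance of a centre runs to the nearest edge of a marked interval. A centre at least 150 bp within an interval was called core, a centre less than 150 bp within it inner edge, and one up to 150 bp outside it outer edge. Further out, a centre up to 1000 bp away was called near, one up to 10 kb away distal, and one beyond that remote. The comparator is the same list of LSD1 peaks moved as a whole by 50 to 500 kb to either side in steps of 50 kb, which gives 20 fixed moves. The moves keep the widths and the spacing of the peaks and use no random draw. A ratio below is the observed share over the mean share of the 20 moves, and its range comes from the highest and the lowest move. Wilson intervals (95%) allow for counting error alone, and peaks that stand side by side are not independent of each other.

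LSD1 centres lay inside H3K4me2 more often than inside H3K4me1, both as a share of peaks and relative to the moved peaks. Inside an H3K4me2 interval lay 16444 centres, or 36.4% (95% Wilson interval 35.9 to 36.8), where the moved peaks had 3.27% (SD 0.283 over 20 moves). That is a ratio of 11.1, with a range of 9.53 to 12.8. Inside an H3K4me1 interval lay 12399 centres, or 27.4% (27.0 to 27.9), where the moved peaks had 3.93% (SD 0.501). The ratio was 6.98, with a range of 5.31 to 8.01, which does not overlap that of H3K4me2. H3K4me1 covered more of the genome than H3K4me2 (67.8 Mb against 60.1 Mb), so the order is not that of the covered lengths.

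The ratios differed little between the core and the edges of an interval. For H3K4me2, core positions held 24.5% of all LSD1 centres at a ratio of 11.6, inner edges held 11.9% at 10.4, and outer edges held 10.5% at 10.1. For H3K4me1, core positions held 17.6% at a ratio of 7.02, inner edges 9.88% at 6.93, and outer edges 9.06% at 7.16. The ranges of the moves overlap among the 3 classes for each mark, so the excess of LSD1 did not stop at the called edge. It fell off in the near class, with 9.72% at a ratio of 2.77 for H3K4me2 and 15.8% at 3.73 for H3K4me1. Distal centres were below the moved peaks, at ratios of 0.609 and 0.749. Remote centres made up 27.8% for H3K4me2 and 27.9% for H3K4me1, at ratios of 0.417 and 0.435.

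**Figure D1:**
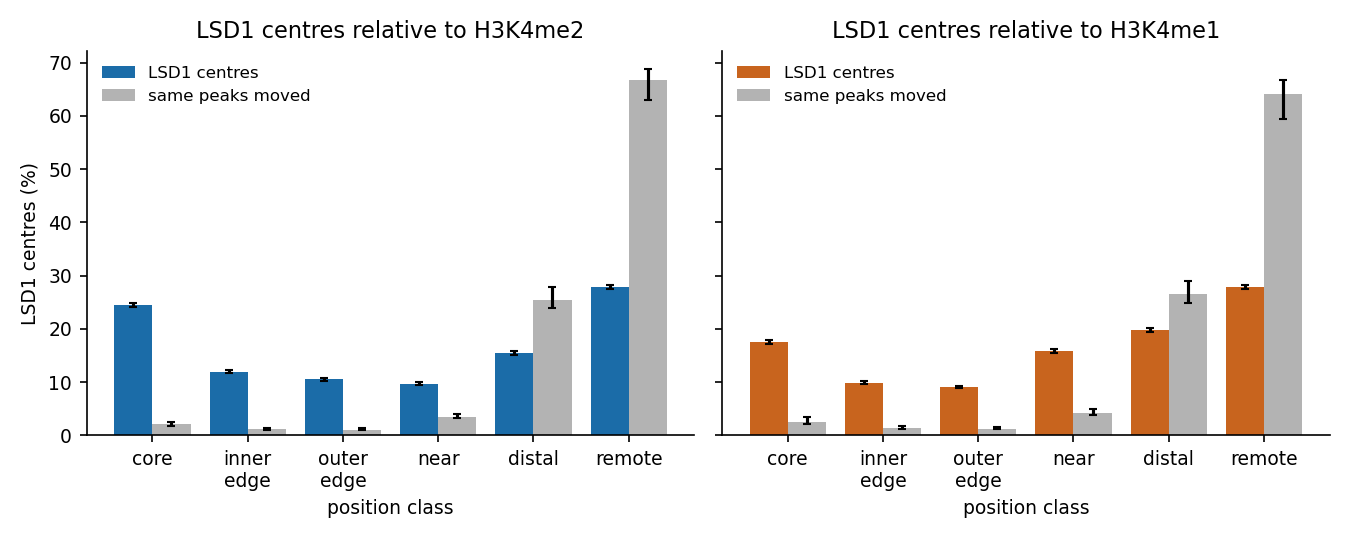
Share of LSD1_DMSO centres (percent) in 6 position classes relative to H3K4me2 (left) and H3K4me1 (right), with 95% Wilson intervals, beside the mean of the same peaks at 20 moves (grey, bars from the lowest to the highest move). Core and both edge classes stand above the moved peaks for each mark, and remote centres stand below them at 27.8% and 27.9%.

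An LSD1 peak can share bases with an interval while its centre lies outside. Of the 22773 LSD1 peaks that shared at least 1 bp with H3K4me2 (5.06% of moved peaks did), 6329 had their centre outside every H3K4me2 interval, or 27.8% (27.2 to 28.4), below the 35.5% of moved peaks that overlapped (33.9% to 37.1% over the moves). Of the 18774 that shared at least 1 bp with H3K4me1 (6.11% of moved peaks did), 6375 had their centre outside, or 34.0% (33.3 to 34.6), within the spread of the moves (mean 35.8%, 33.6% to 38.0%). The LSD1 peak lay wholly within 1 interval for 16.9% of all peaks with H3K4me2 and for 13.6% with H3K4me1. It reached across 2 intervals for 11.6% with H3K4me2, a ratio of 14.8, and for 8.54% with H3K4me1, a ratio of 10.0. Peaks across 3 or more intervals numbered 898 for H3K4me2, at a ratio of 18.8, and 500 for H3K4me1, at 9.52. These peaks were also wide, with medians of 1624 bp and 1698 bp where the median of all LSD1 peaks was 471 bp.

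Each centre was then placed against both marks at once. Centres inside both marks numbered 7580, or 16.8%, at a ratio of 10.1, and centres inside H3K4me2 alone numbered 8864, or 19.6%, at 12.2. Centres inside H3K4me1 alone were fewer, 4819 or 10.7%, and their ratio of 4.69 was the lowest of the 3. Centres inside neither mark numbered 23925, or 52.9%, against 94.5% of the moved peaks. Of these, 9090 were within 1000 bp of at least 1 of the marks (20.1% of all LSD1 peaks, a ratio of 3.26). Among the 36 pairings of a position relative to H3K4me2 with a position relative to H3K4me1, the highest ratio, 15.5, belonged to centres at the outer edge of both marks, which were 911 peaks. The moved peaks had 0.0887% to 0.195% there over the moves. Centres in the core of H3K4me2 and remote from H3K4me1 had a ratio of 14.3, and the ranges of these ratios over the moves overlap. The outer edge of both marks had a median LSD1 fold of 3.96, against 3.65 for centres in the core of both.

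Profiles of coverage around LSD1 centres gave different shapes for the marks. H3K4me2 covered 36.4% of the centres and 31.8% and 31.9% of the positions 500 bp to the lower and higher coordinate. Its coverage at the centre was thus 4.53 points above the mean of those shoulders. H3K4me1 covered 27.4% of the centres and 28.1% and 27.9% of the positions 500 bp away, so the centre was 0.553 points below its shoulders, a difference written as -0.553 below. Over all peaks this small difference turned to 0.728 points for LSD1 peaks up to 500 bp wide and to 1.13 points for intervals joined across 500 bp. Its highest coverage, 28.6% and 28.4%, lay 300 bp to either side. The moved peaks had flat coverage over the whole 2000 bp on each side. The difference between centre and shoulder was defined after the profiles had been seen.

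The shape changed with the strength of the LSD1 peak. LSD1 peaks were cut into 10 equal groups by the deposited −log10 q from which the score is made, with decile 10 the strongest. In the lowest score decile, H3K4me1 covered 19.5% of the centres, 2.11 points above its shoulders. In the middle of the list, decile 5, the centre stood 0.963 points above the shoulders. From decile 8 on it was below them, by -0.763 points, then -4.47 points in decile 9 and -8.50 points in decile 10. In decile 10, H3K4me1 covered 36.9% of the centres (35.5 to 38.3) and 45.6% and 45.1% of the positions 500 bp away. The highest decile thus had the highest H3K4me1 coverage 500 bp away and the deepest dip at the centre. H3K4me2 stayed 1.66 points higher at the centre than 500 bp away in decile 10, but its maximum of 39.9% and 40.3% lay 200 bp to either side of a centre at 37.0%. For H3K4me1 the dip of the highest decile stayed below 0 under each alternative run with LSD1_DMSO peaks. It ranged from -10.4 to -3.32 points, the last with joined intervals. For H3K4me2 the sign of that difference turned with LSD1_DMSO peaks in the upper 50% by score (-0.40 points). It also turned with those of −log10 q at least 2 (-0.28 points).

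**Figure D2:**
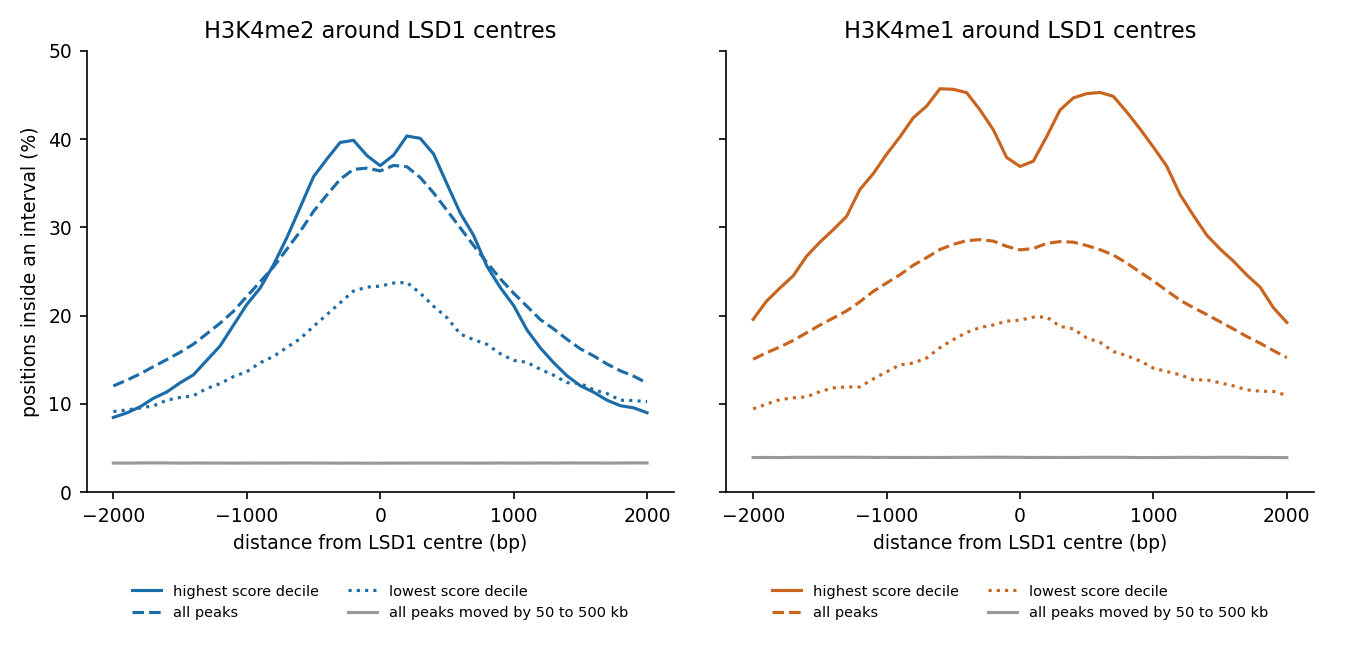
Percent of positions that lie inside an H3K4me2 (left) or H3K4me1 (right) interval, by distance from the LSD1 centre in bp, for all peaks, the lowest and the highest score decile, and the mean of all peaks at 20 moves (grey). The H3K4me1 curve of the highest decile falls to 36.9% at the centre between shoulders of 45.6% and 45.1%, while the lowest decile has no such dip.

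The median LSD1 width was 658 bp in decile 10 and 405 bp in decile 1, so the H3K4me1 dip was read within bands of LSD1 width. In decile 10 it was -8.35 points for peaks under 500 bp, -11.6 points for peaks of 500 bp to under 1000 bp, and -5.33 points for wider peaks. In decile 5 the same bands gave 2.59, -0.111 and -2.46 points. At each width the H3K4me1 difference was therefore lower in decile 10 than in decile 5. H3K4me2 dipped too in decile 10 peaks under 500 bp, with 23.3% at the centre and 31.4% and 31.2% at 200 bp to either side. Its coverage 500 bp away, 24.2% and 21.7%, does not show that dip. In decile 10 peaks of at least 1000 bp its highest coverage, 52.4%, was at the centre. Between these widths the centre had 38.7%, below maxima of 39.5% and 42.5% on the lower and higher side. Over all LSD1 peaks of single chromosomes, H3K4me2 was higher at the centre than at the shoulders on 23 of 23 (chromosomes 1 to 22 and X). H3K4me1 was lower at the centre on 16 and higher on 7. Decile 10 was not split by chromosome.

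A centre between close neighbouring intervals showed the same geometry without a profile. A short gap here is a space of less than 500 bp between neighbouring intervals of 1 mark, a measure chosen after the data had been seen. Short H3K4me2 gaps held 2491 LSD1 centres, or 5.51% (5.31 to 5.73), against 0.376% of the moved peaks (0.329% to 0.417% over the moves). Their ratio, 14.7, exceeds the 11.1 found inside the intervals. Gaps of 150 bp to under 200 bp had the highest ratio, 16.2, and the ratio fell to 8.43 for gaps of 500 bp to under 1000 bp and to 4.41 for those up to 2000 bp. Short H3K4me1 gaps held 1978 centres, or 4.38% (4.19 to 4.57), at a ratio of 10.3, where the ratio inside H3K4me1 was 6.98. The range of this ratio over the moves, 7.73 to 12.2, overlaps the 5.31 to 8.01 inside H3K4me1, while that of short H3K4me2 gaps, 13.2 to 16.8, lies above the 9.53 to 12.8 inside H3K4me2. For H3K4me1 the highest ratio, 11, was in gaps of 300 bp to under 500 bp, with a range of 7.27 to 15.1 that overlaps those of the narrower gaps. In H3K4me1 gaps of 500 bp to under 1000 bp the ratio was 9.70 (7.59 to 12.3), above that inside H3K4me1. The same gap width in H3K4me2 had a ratio below that inside H3K4me2. In both cases the ranges of gap and inside overlap.

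Short gaps of both marks at once held 398 LSD1 centres, 0.881% of the list (0.799 to 0.971), against 0.0323% of the moved peaks. This ratio of 27.3 was higher than for short gaps of either mark alone, and the median LSD1 fold of these peaks was 4.14, where that of all peaks was 3.61. The other centres in short H3K4me2 gaps were partly covered by H3K4me1. Of all centres in short H3K4me2 gaps, 32.2% lay inside H3K4me1, less than the 46.1% of centres inside H3K4me2 that did so. Among moved peaks, 3.27% lay inside H3K4me2 and 1.66% inside both marks. The H3K4me1 share of moved peaks in short gaps was not computed, so whether this contrast is particular to LSD1 was not tested.

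LSD1 score moved with the gap ratio more than with the ratio inside the intervals. Between score deciles 1 and 10, the ratio inside H3K4me2 went from 7.00 to 13.0, while that of short H3K4me2 gaps went from 6.77 to 27.2. For H3K4me1, the ratio inside went from 5.03 to 9.83 and that of short gaps from 5.50 to 21.6. In decile 10, 9.36% of LSD1 centres lay in a short H3K4me2 gap and 9.16% in a short H3K4me1 gap, against 2.83% and 2.35% in decile 1.

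**Figure D3:**
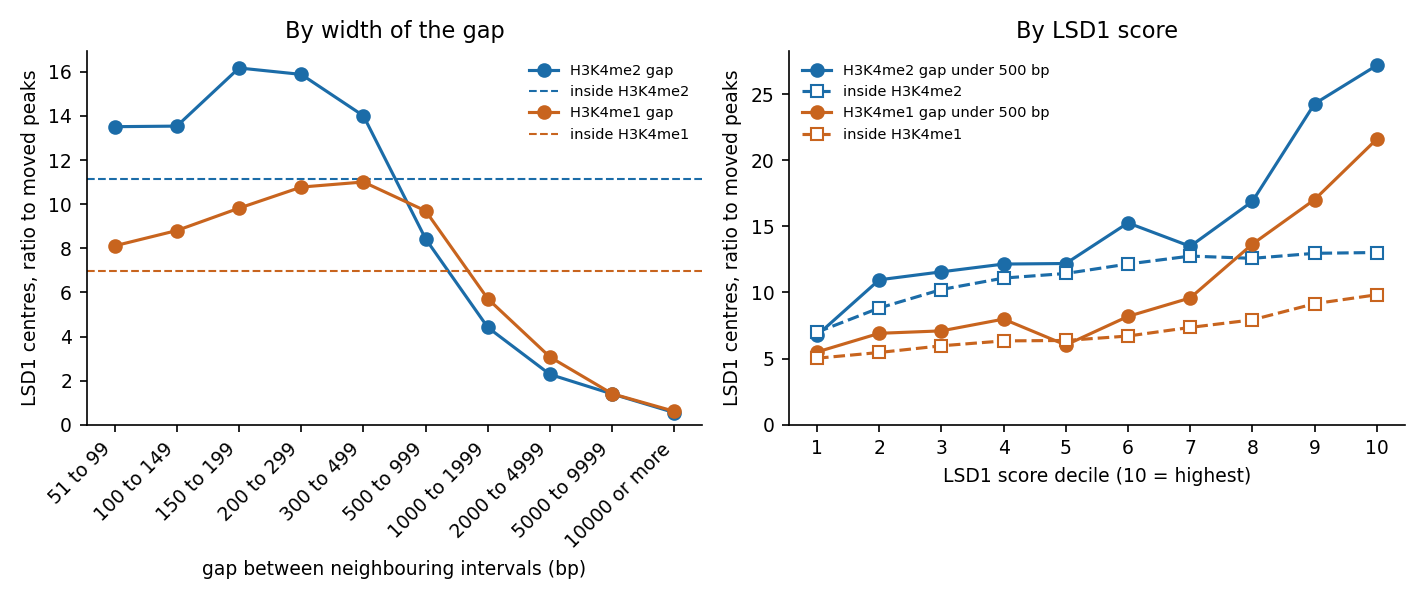
Ratio of LSD1 centres to the mean of 20 moves, by the width of the gap between neighbouring mark intervals (left, bp, dashed lines give the ratio inside the intervals) and by LSD1 score decile (right, filled points for gaps under 500 bp, open squares inside). The short-gap ratios rise to 27.2 for H3K4me2 and 21.6 for H3K4me1 in the highest decile.

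Within the marked intervals, LSD1 centres fell in the middle more often than moved centres in some bands of width. Of the centres inside H3K4me2, 37.6% (36.9 to 38.3) fell in the middle 33.3% of the width, against 33.5% of the moved centres that lay inside (SD 1.30, highest move 35.7%). The share was 32.6% in intervals under 300 bp, where the moved centres had 33.3%. It was 39.5% against 32.9% in intervals of 1000 bp to under 2000 bp, and 40.9% against 34.2% in those of 2000 bp to under 4000 bp, above the highest moves of 36.4% and 39.7%. In H3K4me2 intervals of 4000 bp or more it was 38.1% (34.4 to 41.9) against 35.9%, with a highest move of 44.6%, so no difference beyond the moves was seen there. H3K4me1 had 34.1% against 33.5% over all widths. In H3K4me1 intervals of 300 bp to under 500 bp, 500 bp to under 1000 bp and 1000 bp to under 2000 bp, the middle held 30.5%, 30.6% and 30.8%, below the moved 33.4%, 34.0% and 33.3%. The highest Wilson bound of these 3 shares was 32.9%, and the lowest moves reached 28.3%, 30.4% and 29.3%, so these departures are within the spread of the moves. In H3K4me1 intervals of 2000 bp to under 4000 bp the middle held 40.1% against 33.7%, and in wider ones 40.1% against 33.0%, above the highest moves of 38.9% and 38.3%.

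Joining intervals across gaps of up to 500 bp brought the marks together. The middle then held 44.2% of the inside centres for H3K4me2, against 33.7% of the moved centres, and 43.3% for H3K4me1, against 33.4%. For joined H3K4me1 domains of 2000 bp to under 4000 bp it held 49.7% (48.3 to 51.2). Centres in the outermost 20% of an unjoined interval leaned toward a neighbour. The next H3K4me2 interval stood within 1 kb on the near side of 69.0% of these 2822 centres and on the far side of 43.8%, where the moved centres had 55.5% and 54.8%. For H3K4me1 the shares were 70.4% and 50.8% of 2591 centres, where the moved centres had 55.3% and 56.0%. An LSD1 centre close to an edge was thus more often close to a gap than to the open end of a domain.

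**Figure D4:**
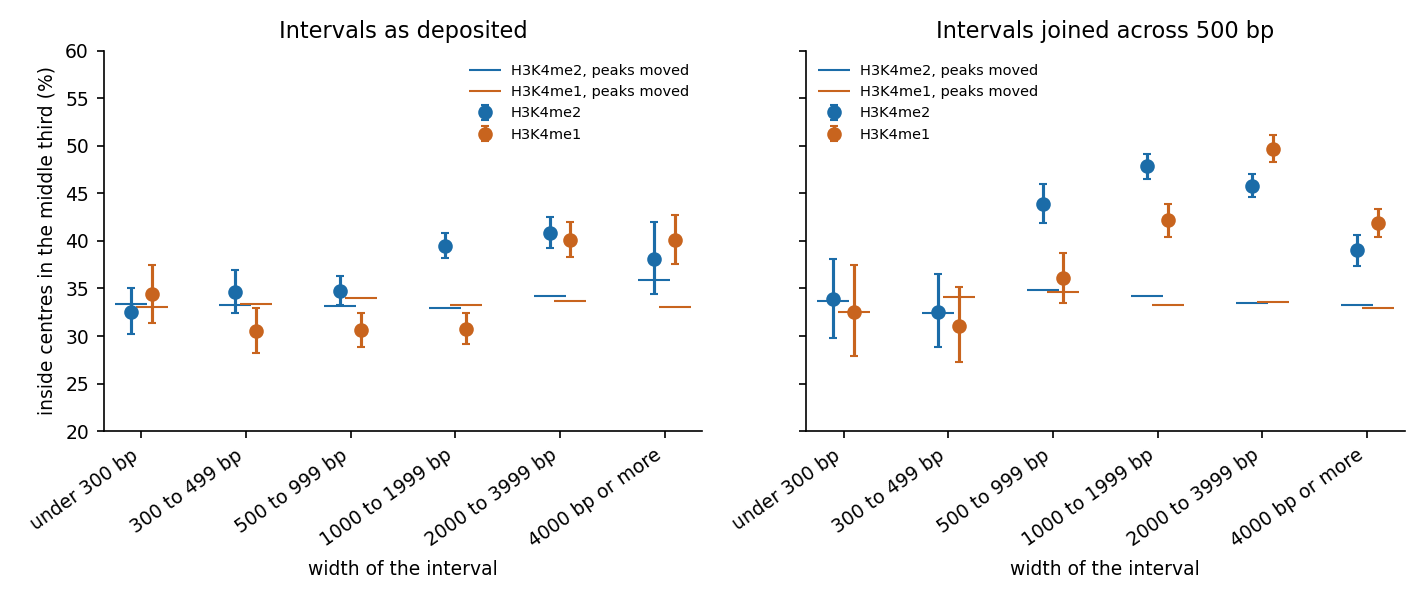
Percent of inside LSD1 centres that fall in the middle 33.3% of the interval, by interval width, for intervals as deposited (left) and joined across gaps of up to 500 bp (right). Points carry 95% Wilson intervals, dashes give the mean of 20 moves, and the axis starts at 20%. In joined H3K4me1 domains of 2000 bp to under 4000 bp the share reaches 49.7%.

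Summits, the points of highest signal that the narrow-peak lists give, placed LSD1 closer to H3K4me2. Within 100 bp of LSD1 centres there were 221 H3K4me2 summits per 1000 centres, against 19.7 for the moved peaks, a ratio of 11.2. H3K4me1 had 139 per 1000 centres, against 20.6, a ratio of 6.72. Where both marks had a summit within 1 kb, at 17735 centres, the H3K4me2 summit was the nearer for 60.3% (59.5 to 61.0), where the moved peaks had 47.0% (SD 1.22). The median distances were 150 bp to H3K4me2 and 218 bp to H3K4me1. Summits on both sides within 1 kb but none within 100 bp of the centre were found at 18.8% of the centres for H3K4me2, a ratio of 12.1, and at 17.8% for H3K4me1, a ratio of 8.72. Summits on both sides and also at the centre had nearly the same ratios, 11.9 and 7.55. Among centres with H3K4me2 summits on both sides, 62.2% had none at the centre, within the spread of the moves (59.8% to 63.3%). For H3K4me1 that share was 72.5%, against 67.5% to 71.6% over the moves. Between score deciles 1 and 10, summits on both sides became more frequent without a summit at the centre (H3K4me1 10.2% to 32.1%, H3K4me2 11.5% to 24.5%) and with one (4.25% to 10.0% and 6.18% to 10.9%). The share with none at the centre, among centres with summits on both sides, was 70.6% and 76.2% in these deciles for H3K4me1 and 65.0% and 69.3% for H3K4me2. It did not rise steadily, as decile 5 had 69.6% and 59.2%. The Wilson intervals of deciles 1 and 10 overlap for H3K4me2 (61.6 to 68.2 and 66.9 to 71.5). For H3K4me1 they do not (67.0 to 74.0 and 74.2 to 78.0). Inside intervals with several summits, 66.5% of 11983 centres lay between 2 summits of H3K4me2 (moved 63.1%, SD 1.86, highest 67.1%) and 64.8% of 8292 between 2 summits of H3K4me1 (moved 65.1%, SD 1.57). Neither of the last pair of shares stood outside the spread of the moves.

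Seen from the marks, LSD1 overlapped wide intervals most, as the moved peaks also did, and matching on width changed the order. In the narrowest decile of H3K4me2 intervals, with a median of 164 bp, 16.6% shared at least 1 bp with an LSD1 peak, against 1.84% for the moved peaks, a ratio of 9.0. In the widest decile, with a median of 2284 bp, 67.3% did, against 7.81%, a ratio of 8.62. The highest ratio, 13.8 (range over the moves 11.2 to 17.1), was in decile 7, with a median of 667 bp. Its range lies above that of the widest decile (7.08 to 9.77). A share of intervals has a ceiling, so this ratio is capped where the moved share is high, as in the widest decile. For H3K4me1 the ratio was 5.41 in the narrowest decile (214 bp), 9.0 in decile 9 (1161 bp) and 6.98 in the widest (2263 bp). The ranges of decile 9 (7.19 to 10.3) and of the widest decile (4.89 to 8.38) overlap. The order of the outer deciles for H3K4me1 turned when LSD1 peaks were limited to 500 bp in width (6.58 in the narrowest and 5.51 in the widest) or the mark intervals to the upper 50% by score (6.82 and 6.15). Per Mb of H3K4me2 interval there were 174 LSD1 centres in the narrowest decile, 333 in decile 7 and 249 in the widest, where the moved peaks had 22.4, 23.1 and 26.0. Such a count has no ceiling. Its ratio was 14.4 (11.2 to 19.2) in decile 7 and 9.59 (7.86 to 11.4) in the widest, and these ranges overlap. The fold of the mark itself was compared at matched width. In the widest decile the median fold of the mark was 14.3 with LSD1 and 14.0 without for H3K4me2, and 10.1 and 8.62 for H3K4me1. That decile is loosely matched, as its H3K4me2 intervals span 1753 bp to 18378 bp. For H3K4me2 the order was the other way in decile 8 (8.89 and 9.15) and decile 9 (11.3 and 11.7). In H3K4me2 deciles 2 to 7 the fold was higher with LSD1, and in the narrowest it was 4.53 in both.

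**Figure D5:**
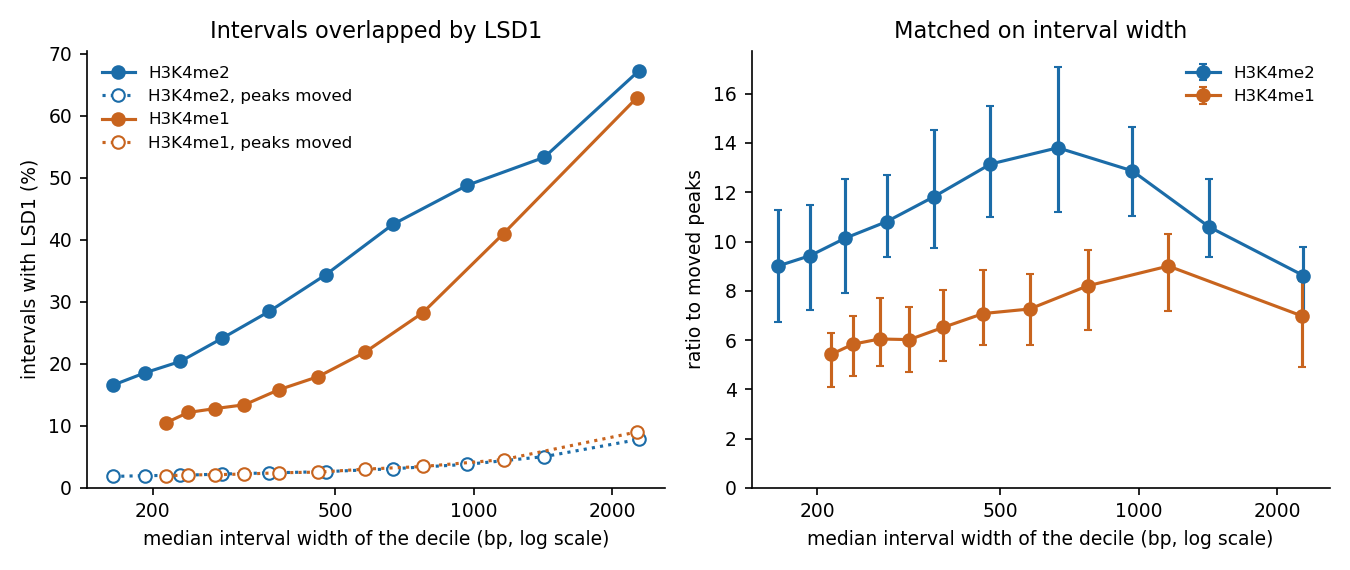
Left, percent of mark intervals that share at least 1 bp with an LSD1 peak, by median width of the interval decile (bp, log scale), with the moved peaks as open points. Right, their ratio with the range over 20 moves, which peaks at 13.8 for H3K4me2 near 667 bp and at 9.0 for H3K4me1 near 1161 bp.

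Wide LSD1 peaks had their centre inside H3K4me2 most often. The ratio rose from 6.66 in the narrowest LSD1 decile (median 153 bp) to 17.5 in the widest (1642 bp). For H3K4me1 it rose less, from 5.49 to 8.60. In both cases the moved peaks had the same widths as the observed ones.

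The centres outside a mark stayed nearer to it than moved centres did. The median distance of the 28744 centres outside H3K4me2 was 6.70 kb, against 20.8 kb for the moved peaks (SD 1.57). For the 32789 outside H3K4me1 it was 3.77 kb, against 19.5 kb (SD 1.70). These distances depend on the lists: with the upper 50% of mark intervals by score they were 16.6 kb and 13.0 kb, and for LSD1 peaks of −log10 q at least 2 the distance to H3K4me1 was 1.91 kb. More than 10 kb from both marks stood 8561 centres, or 18.9%, a ratio of 0.328, and more than 50 kb from both stood 2342, or 5.18% (4.98 to 5.39), against 16.1% of the moved peaks. The last group was narrow, with a median of 279 bp, but its median fold of 3.68 was not below the 3.61 of the whole list. Which DNA these sites hold was not analysed here.

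Single peaks show each geometry, with positions on hg19. The peak chr21:43540144-43540917, ranked 2 by score with a fold of 12.9, had its centre 189 bp inside a 1731 bp H3K4me2 interval, between summits 68 bp and 260 bp away, and 15 bp inside a 2769 bp H3K4me1 interval. At chr1:177282689-177283666, ranked 18, the centre lay 541 bp inside H3K4me2 and 4288 bp inside an H3K4me1 interval of 8896 bp that held 28 summits, at 51.8% of its width. Centres in the core of H3K4me2 with no H3K4me1 overlap were led by chr20:35492350-35493211. It ranked 178 with a fold of 7.42, and its nearest H3K4me1 interval was 2250 bp away. Centres in the core of H3K4me1 with no H3K4me2 overlap were led by chr2:43424539-43425609, ranked 133 with a fold of 8.37, where the nearest H3K4me2 interval was 18.6 kb away.

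Gap and edge peaks were also picked by highest score, and the peaks ranked 8 and 10 led both groups. The peak chr2:217501170-217502168, ranked 8, had its centre in a 468 bp gap between H3K4me2 intervals of 818 bp and 547 bp, 128 bp from the nearer one, and also 111 bp outside H3K4me1. The peak chr21:43429537-43430711, ranked 10, had its centre in a 260 bp H3K4me2 gap, 126 bp and 135 bp from its sides, with no H3K4me1 within 1836 bp. At chr6:4775521-4776347, ranked 19 with a fold of 11.9, the centre stood 60 bp outside H3K4me2 and 72.7 kb from H3K4me1. Strong peaks far from both marks existed too. The peak chr5:103961754-103962175, ranked 9 with a fold of 11.4 and a width of 422 bp, was 285 kb from the nearest H3K4me2 and 396 kb from the nearest H3K4me1 interval. The peak chr4:118214990-118215305, ranked 43 with a fold of 11.4, was 208 kb and 90.2 kb away.

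The LSD1 peaks that crossed the most H3K4me2 intervals were long, with folds from 2.51 to 4.49 where the median of all LSD1 peaks was 3.61. The peak chr3:156819198-156825410 was 6213 bp wide, crossed 9 H3K4me2 intervals at a fold of 3.91, and had its centre 19 bp outside H3K4me2 and 1520 bp inside a 9106 bp H3K4me1 interval. The peak chr18:24228402-24233573 crossed 7 at a fold of 4.49. By score the first of them ranked 10773 and the second 6758 of 45188. The third, chr2:16029890-16035045, crossed 6 at a fold of only 2.51 although it ranked 120 by score.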

How the data were processed

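ChIP-seq peak lists of 4 libraries in NCI-H526 cells were used, and the 2 inputs among the 6 samples were not used here. Groups were taken from the labels. BWA, Picard and MACS2 2.0, with genome build hg19, are named in the submitters' processing notes. Depth, duplicate handling and the control were not given in the sources used here. Files lack a header, and columns were read in the MACS2 layout. In the deposited score, −log10 q is multiplied by 10 and cut to a whole number, which held for at least 99.99% of each list when checked. Fold enrichment, as deposited by the authors, is a ratio over the caller's background, and the deposited −log10 q is the authors' value. The LSD1 list is in broad-peak layout with −log10 q down to 1.00, and the mark lists are in narrow-peak layout down to 2.02 and 2.01, so widths and weak calls are not alike. Files hold 1 line for each summit, and 178083 H3K4me2 and 175135 H3K4me1 summits were reduced to 81619 and 94689 distinct intervals. Neighbouring intervals stood at least 51 bp apart.

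Moved peaks that left their chromosome were dropped, and at least 99.3% were kept in each of the 20 moves. Chromosome ends were the largest ends in the lists. The planned named regions were the 3 highest-scoring LSD1_DMSO peaks of each of 6 geometries and the 3 that cross the most H3K4me2 intervals, and the text gives part of them. The position search was tested on simulated data. The definitions, lists and regions were chosen with earlier results of these data known. No hg19 sequence or annotation was used here, so no gene or sequence is given and the cell line was not checked against its marker genes. Python 3.11.15, numpy 2.4.6, pandas 2.3.3, scipy 1.17.1 and matplotlib 3.10.9 were used.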

Additional observations from a re-analysis of the deposited data

How the results depend on the processing

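For each mark, 12 values were recomputed under alternatives that change 1 choice at a time, and of 180 recomputed values 51 stayed inside the counting interval of the reported value, 124 moved out of it and 5 turned sign. No ratio to the moved peaks crossed 1: the 92 recomputed ratios ran from 4.18 to 20.8. In each pair below the first value is for H3K4me2 and the second for H3K4me1. With LSD1 peaks in the upper 50% by score, centres inside were 39.7% and 31.5%, at ratios of 12.8 and 8.20. The middle 33.3% held 37.5% and 33.2%, and 66.0% and 64.3% lay between 2 summits. The summit ratios were 13.1 and 7.80, those of the widest mark decile 9.51 and 9.12 and those of the narrowest 9.84 and 5.83. Outside centres were a median of 5.44 kb and 1.97 kb away. With LSD1 peaks of −log10 q at least 2, centres inside were 39.6% and 31.8%, at ratios of 12.7 and 8.26. In the middle 33.3% were 37.4% and 33.1%, and between 2 summits 65.7% and 64.1%. The summit ratios were 13.0 and 7.84, those of the widest mark decile 9.40 and 9.23 and those of the narrowest 9.84 and 5.88. Outside centres were a median of 5.33 kb and 1.91 kb away. With LSD1 peaks up to 500 bp wide, centres inside were 26.3% and 23.6%, at ratios of 8.51 and 6.38. In the middle 33.3% were 36.5% and 34.7%, and between 2 summits 62.9% and 64.1%. The summit ratios were 8.48 and 6.10, those of the widest mark decile 5.65 and 5.51 and those of the narrowest 9.93 and 6.58. Outside centres were a median of 9.91 kb and 7.26 kb away. With mark intervals in the upper 50% by score, centres inside were 29.7% and 22.3%, at ratios of 11.3 and 7.34. In the middle 33.3% were 38.6% and 34.8%, and between 2 summits 67.2% and 65.2%. The summit ratios were 11.7 and 7.07, those of the widest mark decile 7.84 and 6.15 and those of the narrowest 13.4 and 6.82. Outside centres were a median of 16.6 kb and 13.0 kb away. With mark intervals joined across 500 bp, centres inside were 41.9% and 31.8%, at ratios of 11.5 and 7.31. The middle 33.3% held 44.2% and 43.3%, and 84.0% and 84.4% lay between 2 summits. The summit ratios were 11.2 and 6.72, those of the widest mark decile 6.19 and 5.39 and those of the narrowest 8.82 and 5.11. Outside centres were a median of 8.88 kb and 5.05 kb away. With LSD1_GSK552 peaks in place of LSD1_DMSO, centres inside were 36.8% and 25.3%, at ratios of 11.1 and 6.43. In the middle 33.3% were 35.8% and 34.5%, and between 2 summits 64.7% and 65.2%. The summit ratios were 11.4 and 6.28, those of the widest mark decile 8.90 and 6.91 and those of the narrowest 8.74 and 4.94. Outside centres were a median of 4.96 kb and 2.73 kb away. With moves of 5 to 45 kb, ratios were 8.61 and 4.68 for centres inside, 8.74 and 4.54 for summits, 6.61 and 4.35 for the widest decile and 6.71 and 4.18 for the narrowest. With moves of 1 to 5 Mb, ratios were 14.6 and 9.82 for centres inside, 14.7 and 9.63 for summits, 12.0 and 10.6 for the widest decile and 12.1 and 7.37 for the narrowest. The short-gap ratio and the difference between centre and 500 bp away were put under the same alternatives after the data had been seen. Short-gap ratios were 19.3 and 14.1 (LSD1 peaks in the upper 50%), 19.5 and 14.3 (−log10 q at least 2), 13.6 and 8.96 (LSD1 peaks up to 500 bp), 17.9 and 14.8 (mark intervals in the upper 50%). They were also 20.8 and 11.4 (LSD1_GSK552), 11.3 and 7.27 (moves of 5 to 45 kb), 19.7 and 14.2 (moves of 1 to 5 Mb). Differences in points over all peaks were 4.50 and -2.62 (LSD1 peaks in the upper 50%), 4.46 and -2.75 (−log10 q at least 2), 4.85 and 0.73 (LSD1 peaks up to 500 bp). They were also 3.30 and -0.67 (mark intervals in the upper 50%), 2.04 and -3.32 (LSD1_GSK552), 6.65 and 1.13 (joined). In the highest score decile of each list they were -0.40 and -10.4 (LSD1 peaks in the upper 50%), -0.28 and -10.4 (−log10 q at least 2), 1.34 and -7.37 (LSD1 peaks up to 500 bp), and then 0.85 and -6.79 (mark intervals in the upper 50%), -3.07 and -11.6 (LSD1_GSK552), 7.01 and -3.32 (joined). Joining leaves no gap under 500 bp, so it gave no gap ratio. Requiring 50% of the interval or of the LSD1 peak gave 9.03 and 6.68 for the widest decile and 8.57 and 5.36 for the narrowest. Edge classes, 22.5% and 18.9% at 150 bp, held 13.1% and 10.4% at 75 bp and 33.9% and 29.2% at 300 bp. The ratio of centres inside was higher for H3K4me2 than for H3K4me1 under each alternative run. On chromosomes 1 to 22 alone each value recomputed stayed inside the counting interval, and the edge classes were not rerun there. Layouts, joint positions, the lean toward a neighbour and the other score deciles were not recomputed. The size of each ratio depends on how far the peaks are moved, and the middle share of H3K4me1 and the distances of outside centres depend on how intervals are called and joined. Beyond these constructions, the cause of a move was not tested. No paired analysis was possible because every group consists of 1 library and no result comes from a test, and there is no replicate to leave out.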

Other observations

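The LSD1_GSK552 library of inhibitor-treated cells, with 49597 peaks, was read against the same DMSO marks. Its centres lay inside H3K4me2 for 36.8% and inside H3K4me1 for 25.3%, and the H3K4me1 difference between centre and shoulder was -3.32 points over all its peaks and -11.6 points in its highest score decile. In that decile H3K4me2 also dipped, by -3.07 points. Short gaps held 7.67% of its centres for H3K4me2, a ratio of 20.8 to its own moved peaks, and 4.90% for H3K4me1, a ratio of 11.4. The marks in inhibitor-treated cells were not analysed here, the peaks of both LSD1 libraries overlap in part, and each has 1 library, so the difference between them was not tested.

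Chromosome 19 stood apart in position. It had the lowest ratio of inside centres for both marks, 5.31 for H3K4me2 and 4.01 for H3K4me1, and the lowest share inside H3K4me1, 13.9%. Chromosome 22 had the lowest share inside H3K4me2, 29.4%. The low H3K4me2 ratio of chromosome 19 came with a high moved share, 5.60% against 3.27% over all chromosomes. It also came with a low observed share, 29.8%, where the median over chromosomes was 35.8%. Chromosome 17 had a higher moved share, 5.84%, with an observed share of 44.9% and a ratio of 7.70. Chromosome X had the highest ratios, 18.1 and 10.4, with the lowest moved shares, 1.93% and 1.88%. Its observed shares were not high. Inside H3K4me1 lay 19.4%, where the median over chromosomes was 27.7%, and its H3K4me2 share was below the median of 35.8%. The median ratios over 23 chromosomes were 12.2 and 7.24.

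Summits of both marks were uneven between the sides of LSD1 centres at some offsets although coverage was nearly even. In the highest score decile there were 99.8 H3K4me1 summits per 1000 centres at 300 bp to the lower coordinate and 132 at 300 bp to the higher coordinate, each counted within 49 bp. At 500 bp the sides were even, with 119 and 120. Over all LSD1 peaks, H3K4me2 had 99.7 and 87.2 at 500 bp and 72.6 and 57.8 at 1000 bp. H3K4me1 had 72.4 and 72.7 at 500 bp and 65.9 and 55.3 at 1000 bp. The mean position of a summit within its interval was not examined, nor was the bearing of this unevenness on the summit counts above.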
